A study of Homo sapiens with 4 samples.

Results

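Interleukin-6 (IL6), its relatives IL11, LIF and CLCF1, their receptor chains IL6ST, IL6R, IL11RA, OSMR and LIFR, and the feedback inhibitor SOCS3 were followed in U87MG cells, an established human glioblastoma line. The members were all probe sets annotated with exactly 1 of these 10 symbols, which gave 35 probe sets of 9 genes, out of 49293 probe sets and 18132 genes fitted. CLCF1 matched no probe set in the annotation used and is not analysed here. The symbols were selected on family membership and on the log2 differences between the NeuroD2 and control arrays, which were already known. The members' differences and calls are therefore given as a description of these 4 arrays, and nothing is read from how many of them passed.

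One group had received the NeuroD2 expression vector and the other the PCMV control vector (2 PrimeView arrays each, called biological replicates 1 and 2). NeuroD2 is a neurogenic transcription factor of the basic helix-loop-helix class. Both groups were transfected and grew at 0.2% oxygen, and their RNA was taken after 48 hours. The labels give neither the share of cells that took up the vector nor how the replicate cultures were kept apart. Each p-value therefore sets a difference against the spread between these samples only. Limma draws that spread towards the one typical of all genes or probe sets fitted. The design asks which transcripts differ when NeuroD2 is overexpressed in hypoxic glioblastoma cells.

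Cytokines of this family signal through gp130, the protein made from IL6ST. IL-6 and IL-11 first bind their own receptor chains, IL6R and IL11RA, which then recruit gp130 pairs. LIF brings gp130 together with LIFR, and oncostatin M brings it together with OSMR. The receptor complexes activate JAK kinases and the transcription factor STAT3, and STAT3 induces SOCS3, which binds gp130 and the JAKs and shuts the signal off. In glioblastoma the pathway is studied for its part in mesenchymal and inflammatory gene expression.

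Values are log2 probe set values as deposited, so a difference of 1 is a 2-fold change. NEUROD2 read 7.37 and 7.82 on the NeuroD2 arrays, against 5.46 and 5.35 on the control arrays, on the brightest of its 3 probe sets (difference 2.19, limma adjusted p = 0.0044). The other 2 differed by -0.07 and -0.21 and did not pass. The glioma marker VIM read 14.14 and 14.15 on the NeuroD2 arrays and 14.12 and 14.18 on the control arrays, while 3 of 11 glioma markers (S100B, SOX2 and CHI3L1) lay below the array median on all 4 arrays. Of those 11, 1 passed as higher, 2 as lower and 8 did not pass. TNC, an extracellular matrix gene, read 11.71 and 11.71 on the NeuroD2 arrays, against 11.21 and 11.31 on the control arrays (0.45, adjusted p = 0.038). FN1, which encodes fibronectin, read 10.97 and 10.92 on the NeuroD2 arrays, against 11.46 and 11.69 on the control arrays (-0.63, adjusted p = 0.032), and CHI3L1 differed by -0.51 (adjusted p = 0.038). Of 8 neuronal markers 1 fell, SNAP25 of the synaptic vesicle machinery, with 7.93 and 8.06 on the NeuroD2 arrays, against 8.50 and 8.66 on the control arrays (-0.59, adjusted p = 0.031), and 7 did not pass. These 4 calls were lost when any 1 array was left out. Of 9 immune, 6 endothelial and 6 epithelial markers, 0 passed in limma's gene fit (7 of these 21 had an unadjusted p below 0.05, as had 3946 of all genes). The mean log2 level of the immune markers was 5.57 and 5.54 on the NeuroD2 arrays, against 5.57 and 5.43 on the control arrays. Hybridisation spikes averaged 10.10 and 10.13 on the NeuroD2 arrays, against 9.56 and 9.90 on the control arrays, and the poly-A spikes were low on control replicate 1 alone, at 6.95 against 7.96 to 8.03 on the other 3 arrays. The part of the spike differences in the results was not tested.

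Promoter sequences of the members are shown for the called genes IL6, IL11 and OSMR, with their matches to elements bound by inflammatory transcription factors. Members that were not called hold such matches too. RefSeq promoters (GRCh38.p14, 250 bases before to 50 after the start) were found for 8 of the 10 genes, with 12 start sites in all. LIF and CLCF1 had no entry in the promoter sequences used and were not searched. Both strands were searched for AP-1 (TGANTCA), C/EBP (TTGCNNAA), STAT (TTCNNNGAA), the cyclic AMP element (TGACGTCA), the NF-kB motif and E-boxes (CANNTG, among them CAGATG). Capitals mark AP-1, C/EBP and NF-kB matches, and positions are counted from the start site as 1, with no 0.
IL6, chr7:22726950-22727249, plus strand: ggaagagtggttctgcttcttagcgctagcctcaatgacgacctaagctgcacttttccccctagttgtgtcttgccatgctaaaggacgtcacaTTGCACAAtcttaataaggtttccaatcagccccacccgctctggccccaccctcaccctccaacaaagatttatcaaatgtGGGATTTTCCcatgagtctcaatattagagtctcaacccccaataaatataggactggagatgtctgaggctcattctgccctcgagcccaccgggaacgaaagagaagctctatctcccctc
IL11, chr19:55370414-55370713, minus strand: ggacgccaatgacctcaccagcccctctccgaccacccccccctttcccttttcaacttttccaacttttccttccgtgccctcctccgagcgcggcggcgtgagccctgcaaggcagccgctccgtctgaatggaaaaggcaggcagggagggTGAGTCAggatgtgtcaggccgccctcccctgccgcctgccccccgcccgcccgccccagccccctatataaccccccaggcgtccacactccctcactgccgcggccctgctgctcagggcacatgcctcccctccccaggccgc
OSMR, chr5:38845762-38846061, plus strand: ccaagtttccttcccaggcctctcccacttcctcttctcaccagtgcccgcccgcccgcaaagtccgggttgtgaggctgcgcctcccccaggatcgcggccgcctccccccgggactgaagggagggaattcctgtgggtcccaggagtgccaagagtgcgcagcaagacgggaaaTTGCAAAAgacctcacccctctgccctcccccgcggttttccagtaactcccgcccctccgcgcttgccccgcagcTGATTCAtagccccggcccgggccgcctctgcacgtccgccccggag

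The IL6 promoter holds a C/EBP match at -155 and an NF-kB match at -73, with an E-box (CAAATG) at -80. The IL11 promoter holds an AP-1 match at -96, and the OSMR promoter a C/EBP match at -73 and an AP-1 match at 4, which overlaps an E-box (CAGCTG) at -1. Of 35116 RefSeq promoters of the same length, 7.71% hold the AP-1 motif, 10.5% the C/EBP motif, 11.3% the NF-kB motif and 68.7% an E-box. At the 2 SOCS3 starts none of the AP-1, C/EBP, STAT, NF-kB or cyclic AMP motifs matched, and each holds the E-box CAGATG on the strand opposite to the gene, a motif that 14.7% of all promoters hold on either strand. Among the members that were not called, IL6R holds an AP-1 match at 38, IL6ST an NF-kB match at -53, IL11RA an NF-kB match at -96 at 1 of its starts and LIFR a C/EBP match at -31 at 1 of its starts. STAT matches occur at 2 of the 3 LIFR starts (7.66% of all promoters). The same 2 LIFR starts also hold the E-box CAGATG, at 1 of them on the strand opposite to the gene, so this motif is not particular to the called SOCS3. These are matches of letters in a window and do not show that a factor binds there.

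The 3 ligand genes stood highest among the members with the NeuroD2 vector. LIF, a cytokine that acts on stem cells and neural cells, differed by 1.54 (2.91-fold), IL6 by 1.37 (2.59-fold) and IL11 by 0.94 (1.92-fold). SOCS3 (0.44) and OSMR (0.43) rose by less, and IL6ST, IL6R, IL11RA and LIFR did not pass in the gene fit. That made 5 of 9 members higher and 0 lower at an adjusted p below 0.05 by limma, where 1.81% of all genes were called higher and 2.96% lower (7 members had an unadjusted p below 0.05). The groups did not overlap for 6 members that were higher and 1 that was lower, against 24.2% and 26.6% of all genes. The arrays read RNA of whole cultures, so more cells expressing a gene and more RNA per cell cannot be told apart. Without NeuroD2 replicate 1 or without NeuroD2 replicate 2, IL6 and LIF passed, with 57 and 66 of all genes called in place of 864. Without control replicate 1 or control replicate 2, 0 members passed, as did 0 of all genes (4428 and 4102 genes, and 7 and 8 members, had an unadjusted p below 0.05).

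**Figure D1:**
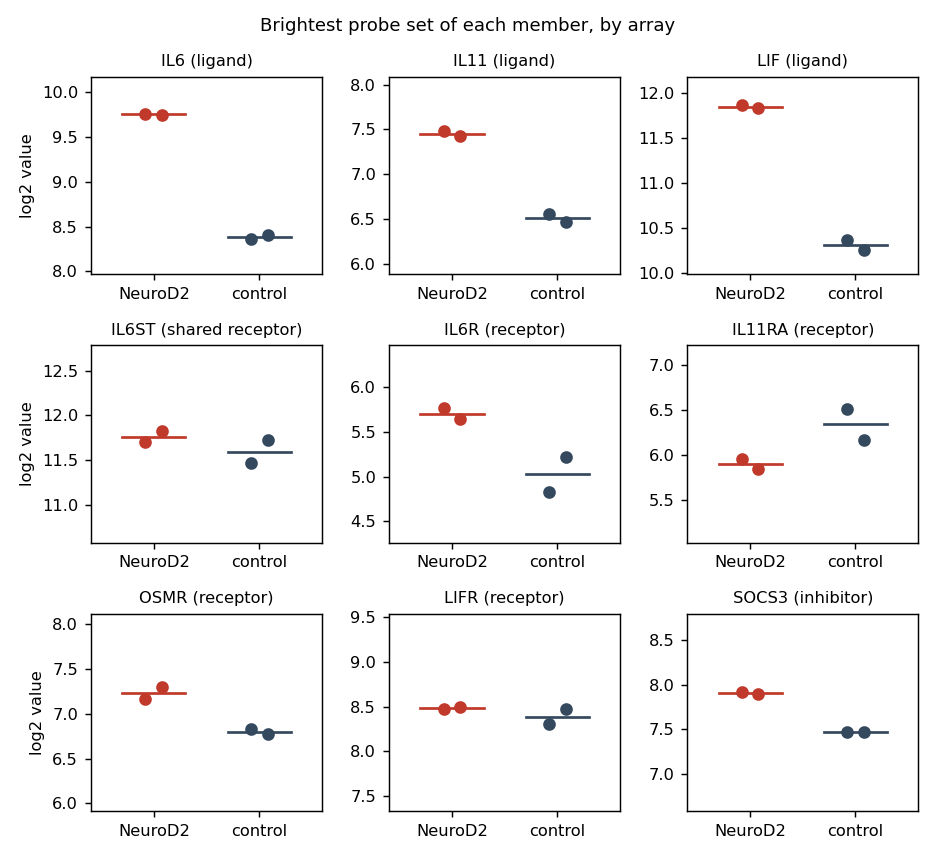
Log2 value of the brightest probe set of each of the 9 measured members (vertical axis, the same span in every panel) in the 2 NeuroD2 and 2 control arrays; points are arrays and lines group means. The groups are apart for IL6, IL11, LIF, IL6R, IL11RA, OSMR and SOCS3 and overlap or touch for IL6ST and LIFR.

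LIF read 11.87 and 11.83 on the NeuroD2 arrays, against 10.36 and 10.26 on the control arrays, on its brightest probe set. All 3 of its probe sets passed in the fit over probe sets (adjusted p from 0.0026 to 0.0041), the only member with every probe set called. The middle one read 9.214 on each NeuroD2 array, against 7.67 and 7.48 on the control arrays (difference 1.64). The dimmest read 7.79 and 7.64 on the NeuroD2 arrays, against 5.77 and 5.89 on the control arrays, and differed most, by 1.89 (3.70-fold). On each probe set the gap between the groups was wider than the spread within either. By size of difference LIF stood at rank 17 of 18132 genes, from high to low.

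IL6, the founding cytokine of the family and an inducer of the acute phase response, read 9.76 and 9.75 on the NeuroD2 arrays, against 8.36 and 8.40 on the control arrays. The difference of 1.37 (standard error 0.07, 95% interval 1.19 to 1.55) put it at rank 22, and leaving out any 1 array moved it only between 1.35 and 1.40. Its other probe set was dim and did not separate the groups. It read 4.44 and 4.88 on the NeuroD2 arrays, against 4.72 and 4.57 on the control arrays, below the array median throughout, with a difference of 0.01 that turned negative under quantile normalization (-0.01). With the mean of both probe sets IL6 differed by 0.69.

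IL11, a cytokine of stromal cells and platelet formation, read 7.48 and 7.43 on the NeuroD2 arrays, against 6.56 and 6.47 on the control arrays. Its brightest probe set passed among all probe sets (adjusted p = 0.0109) and stood at rank 48 of the genes. The other 2 differed by 0.38 and 0.39 with groups that did not overlap, and did not pass (adjusted p = 0.147 and 0.106). The mean of the 3 probe sets gave 0.57. The probe sets of IL11 thus agreed in sign but differed in size, from 1.30-fold to 1.92-fold, whereas those of LIF ran from 2.91-fold to 3.70-fold.

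**Figure D2:**
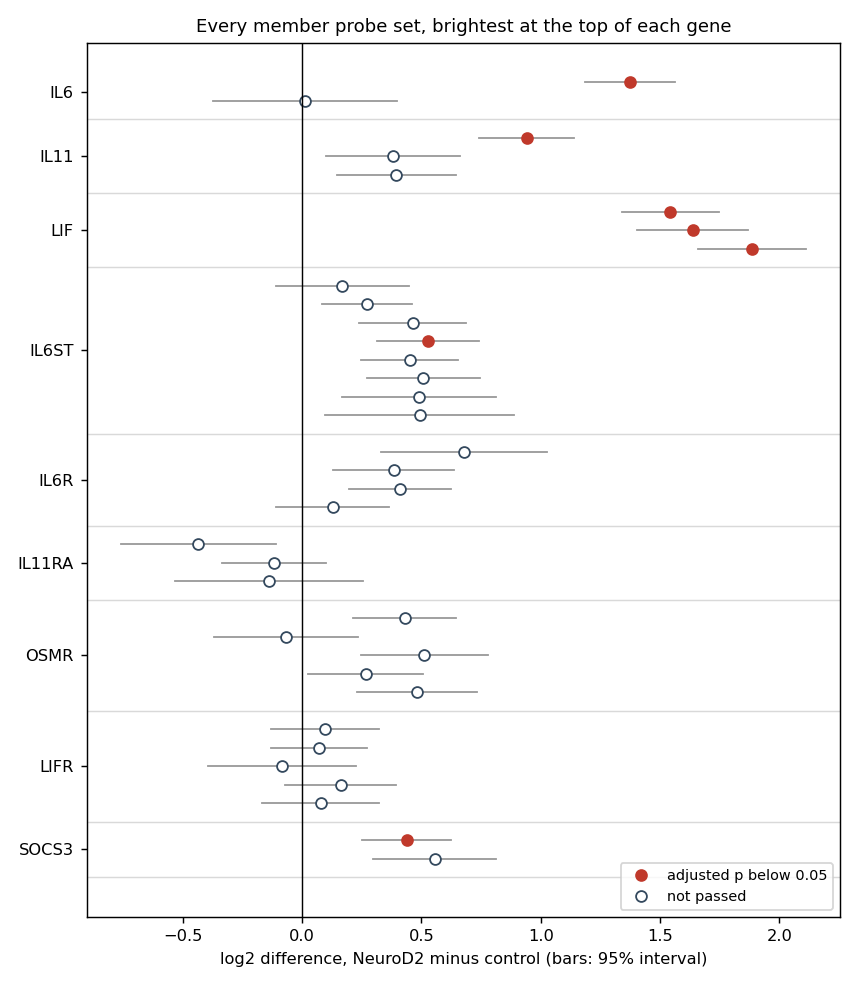
Log2 difference, NeuroD2 minus control, for all 35 member probe sets (points) with 95% intervals from limma's fit over 49293 probe sets; filled points passed an adjusted p of 0.05. The 7 filled points are 3 of LIF and 1 each of IL6, IL11, IL6ST and SOCS3, and all 3 IL11RA probe sets lie left of 0.

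Across the 35 probe sets, 7 passed as higher and 0 as lower, against 1.26% and 1.61% of all probe sets. The groups did not overlap in 26 that were higher and 2 that were lower with the NeuroD2 vector, against 25.0% and 24.3% of all probe sets. Their median difference was 0.41 beside 0.01 for all probe sets. Of the 35, 11 lay below the array median on all 4 arrays, among them all 4 of IL6R.

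IL6ST, the shared signalling chain, gave a different answer on its brightest probe set than on the others. That probe set read 11.70 and 11.83 on the NeuroD2 arrays, against 11.47 and 11.73 on the control arrays, so the groups overlapped (difference 0.17, and 0.04 without control replicate 1). The other 7 separated the groups, with differences from 0.27 to 0.53. The probe set with the largest one read 8.96 on each NeuroD2 array, against 8.36 and 8.50 on the control arrays, and was the only one of the 8 to pass (difference 0.53, adjusted p = 0.042). The mean of the 8 differed by 0.42 and passed (adjusted p = 0.035), so the call for IL6ST turns on which probe sets stand for the gene. On 7 of the 8, control replicate 1 was the lowest array. It was also the array with low poly-A spikes, and the part of that in the result was not tested. Without control replicate 1 the brightest probe set differed by 0.04, and the 7 other than the brightest differed by 0.29 to 0.46.

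**Figure D3:**
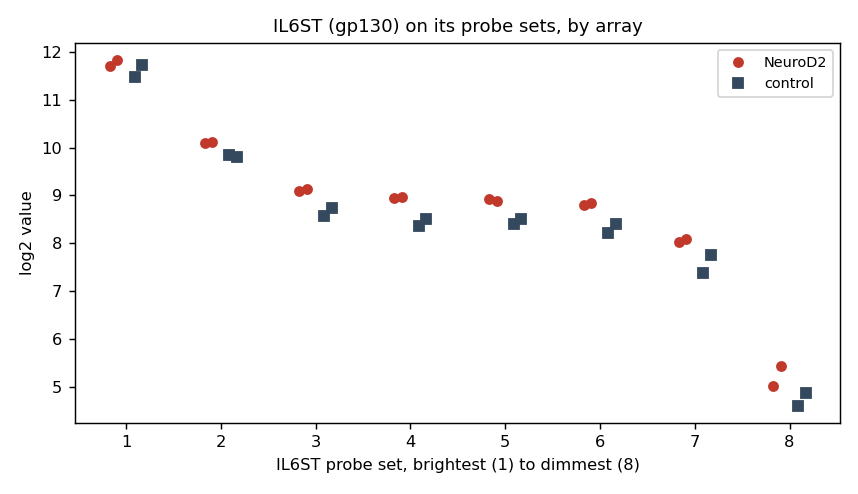
Log2 value of the 8 IL6ST probe sets, ordered by mean level (horizontal axis), on the 2 NeuroD2 arrays (circles) and 2 control arrays (squares). The groups overlap on the brightest probe set and are apart on the other 7; levels of different probe sets are not comparable.

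The ligand-binding chains differed among themselves. IL6R, which confers IL-6 binding, read 5.76 and 5.65 on the NeuroD2 arrays, against 4.83 and 5.22 on the control arrays, a difference of 0.68 that did not pass (adjusted p = 0.055). On all 4 of its probe sets both NeuroD2 arrays lay above both control arrays, by 0.13 to 0.68 on average. The mean of these probe sets passed (0.40, adjusted p = 0.037). The brightest depended on the control arrays, with a difference of 0.48 without control replicate 1 and 0.88 without control replicate 2.

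OSMR, the chain that binds oncostatin M and also serves interleukin-31, read 7.16 and 7.30 on the NeuroD2 arrays, against 6.83 and 6.77 on the control arrays. It was the call nearest the threshold (adjusted p = 0.049), and it did not pass with a robust prior (0.054). In the fit over probe sets 0 of its 5 probe sets passed by limma. Before adjustment 4 of them had a limma p below 0.05, as had 9731 of all 49293 probe sets. On 4 of the 5, both NeuroD2 arrays had higher values than both control arrays. The exception read 6.80 and 6.76 on the NeuroD2 arrays, against 7.01 and 6.68 on the control arrays.

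LIFR, the partner of gp130 for LIF and the neighbour of OSMR on chromosome 5 with 0 annotated protein-coding genes between them, did not separate the groups on its brightest probe set. It read 8.48 and 8.49 on the NeuroD2 arrays, against 8.30 and 8.48 on the control arrays. Its 5 probe sets differed by -0.08 to 0.16. The 95% interval on the brightest, -0.12 to 0.31, leaves room for a small difference in either direction.

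IL11RA, the IL-11 binding chain, was the only measured member with a negative difference. It read 5.96 and 5.85 on the NeuroD2 arrays, against 6.52 and 6.16 on the control arrays, and did not pass (-0.44, adjusted p = 0.127). Leaving out control replicate 1 gave -0.26, and leaving out control replicate 2 gave -0.61. All 3 of its probe sets had negative differences, and on 1 of them the sign turned without control replicate 1 (-0.14 and 0.10).

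SOCS3, the feedback inhibitor, read 7.92 and 7.90 on the NeuroD2 arrays, against 7.47 and 7.48 on the control arrays, 1.35-fold higher. The arrays of each group differed by far less than the groups did. In the gene fit it passed (adjusted p = 0.033). Its dimmer probe set read 7.05 and 7.10 on the NeuroD2 arrays, against 6.64 and 6.40 on the control arrays. That larger difference of 0.56 did not pass in limma's fit over probe sets (adjusted p = 0.057).

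Other genes of the pathway came from lists drawn up on background knowledge, with earlier results of these data known, and mostly did not pass. Over all 18132 genes, 1.81% were called higher and 2.96% lower by limma, and 3946 had an unadjusted p below 0.05. Among 12 measured relatives of the family (ligands, receptors and receptor homologues such as OSM, CTF1, CNTFR and LEPR), 0 passed by limma in either direction, and 3 (IL31RA, IL31 and EBI3) had an unadjusted p below 0.05. The median difference was 0.00, as over all genes. IL31RA, the receptor that pairs with OSMR for interleukin-31, had the largest difference (-0.32, adjusted p = 0.072). It read 8.26 and 8.29 on the NeuroD2 arrays, against 8.56 and 8.63 on the control arrays. The mean of its 6 probe sets differed by -0.13. OSM itself, the ligand of OSMR, read 4.89 and 4.74 on the NeuroD2 arrays and 5.09 and 4.63 on the control arrays.

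Of 13 measured genes of JAK-STAT signalling, 0 passed by limma (2 at an unadjusted p below 0.05), and the median difference was 0.01. STAT3 read 8.90 and 8.97 on the NeuroD2 arrays and 8.97 and 8.88 on the control arrays, so its mRNA level did not separate the groups. The largest difference was that of STAT5A (-0.31, adjusted p = 0.093), but the mean of its 2 probe sets differed by only -0.01. Of 15 inhibitors of the pathway 1 rose by limma, and 7 had an unadjusted p below 0.05. The 1 that rose was SOCS1, a relative of SOCS3 that blocks JAK kinases. It read 5.34 and 5.14 on the NeuroD2 arrays, against 4.61 and 4.74 on the control arrays, all below the array median (0.56, adjusted p = 0.041).

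Of 34 genes known as STAT3 targets in various cell types, 4 rose, 1 fell and 29 did not pass, with a median difference of 0.00. By limma, 13 of the 34 had an unadjusted p below 0.05. BCL6, a transcriptional repressor, read 10.25 and 10.22 on the NeuroD2 arrays, against 9.45 and 9.44 on the control arrays (0.79, adjusted p = 0.0088). The kinase gene PIM3 rose by 0.55 and CEBPB, a transcription factor of the IL6 promoter, by 0.53. Its relative CEBPD rose by 0.49 and was picked for naming with its value known. TWIST1, a mesenchymal transcription factor, fell by 0.58, with 8.44 and 8.46 on the NeuroD2 arrays, against 8.96 and 9.09 on the control arrays. Several acute phase genes of the liver on this list, such as CRP, SAA1 and FGG, lay below the array median on all arrays. HAMP, also on this list, did not: it read 10.13 and 10.08 on the NeuroD2 arrays and 9.92 and 10.15 on the control arrays.

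Among 13 regulators of IL6 mRNA stability, 2 rose, 0 fell and 11 did not pass (median 0.06). By limma, 4 of the 13 had an unadjusted p below 0.05. RC3H2, which encodes the RNA-binding protein roquin-2, read 9.19 and 9.24 on the NeuroD2 arrays, against 8.59 and 8.60 on the control arrays (0.62, adjusted p = 0.015). The mean of its 3 probe sets differed by 0.29 and did not pass (adjusted p = 0.105). ZC3H12A encodes regnase-1, an endonuclease that degrades IL6 mRNA, and rose by 0.54 (adjusted p = 0.039). Of 6 genes of receptor shedding 0 passed by limma, with 1 at an unadjusted p below 0.05. The largest difference there was that of the protease gene ADAM10 (-0.32, adjusted p = 0.085), and ADAM17, which sheds IL6R, differed by 0.04. Over the 6 lists, 7 of 93 measured genes were called higher and 1 lower by limma, against 1.81% and 2.96% of all genes. With any 1 array left out, RC3H2 differed by 0.59 to 0.65 and ZC3H12A by 0.44 to 0.63.

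**Figure D4:**
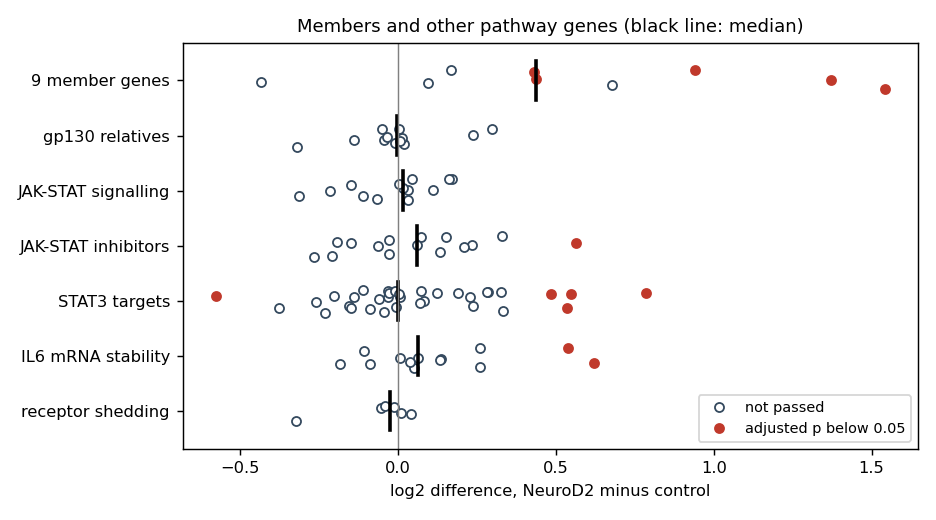
Log2 difference, NeuroD2 minus control, of the 9 member genes and of the genes of 6 pathway lists (rows); filled points passed an adjusted p of 0.05 over all genes and black lines are medians. The list medians lie between -0.03 and 0.06, while 5 members and 8 genes of the lists are filled; the vertical scatter has no meaning.

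The genes whose 4 values, centred on the gene mean, lay nearest to those of the 3 ligands were found over all 18132 genes. Nearest to IL6 by Euclidean distance were the chemokine gene CCL3 (0.08), the aggrecanase gene ADAMTS5 (0.09) and the chemokine gene CXCL2 (0.14). CCL3 read 9.82 and 9.82 on the NeuroD2 arrays, against 8.51 and 8.45 on the control arrays. Nearest to LIF were the growth factor gene FGF2 (0.08), the sialyltransferase gene ST3GAL1 (0.09) and the heat shock gene HSPA6 (0.10), and nearest to IL11 were PNLIPRP3 (0.06), the potassium channel subunit gene ABCC9 (0.07) and the immediate early gene IER3 (0.07). With 4 arrays in 2 groups, such a likeness says little more than that the differences were of like size.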

How the data were processed

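RNA of 4 cultures was measured on 1-colour PrimeView arrays (biotin label, 3' IVT kit, per the labels' protocols). The authors' deposited table of 49395 probe sets was read as log2, going by its values (2.65 to 14.29, array medians 5.98 to 5.99). For software, normalization and scan batches the method is not given in the sources used here. No detection calls were used. The number of arrays limits the precision, and a gene that did not pass is not shown to be unchanged.

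Probe sets with 1 symbol (44988) gave 18132 genes, each read on its probe set with the highest mean. 1832 probe sets carried several symbols, 2473 none, and 102 were Affymetrix controls. Limma 3.58.1 in R 4.3.3 (lmFit and eBayes, group as the only term, two-sided) was fitted over all genes and, separately, over 49293 probe sets, with Benjamini-Hochberg adjustment over each and a threshold of 0.05. It was tested on simulated data. An exact permutation test of 2 against 2 arrays cannot go below 0.333 and was not used. The members and lists were chosen with earlier results of these data known. Named by rule were all members, NEUROD2, up to 4 passing genes of each pathway or marker list, and the 3 nearest genes of each ligand. A pathway list with none passing gave its largest difference. Some further genes, such as VIM, OSM, IL31, EBI3, STAT3, ADAM17, CEBPD and the acute phase genes, were named outside this rule. Alternatives were the replicate block, each array left out, quantile normalization, median centring, a trended and a robust prior, a filter at the median level and probe set means per gene.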

Additional observations from a re-analysis of the deposited data

How the results depend on the processing

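The 9 member genes kept the sign of their difference under every alternative run. Of 61 comparisons of a member gene with an alternative that kept all arrays, 55 kept their side of the threshold, 3 lost it (OSMR and SOCS3 with the replicate block, OSMR with a robust prior) and 3 gained it (IL6ST with the mean of probe sets, IL6R with that mean and with the intensity trend). With an array left out, 16 of the 20 comparisons of the 5 called members lost it, all but IL6 and LIF without either NeuroD2 array. With the replicate block OSMR and SOCS3 had an adjusted p of 0.088 and 0.070, and of the other named genes PIM3, CEBPB, CEBPD, TWIST1, SOCS1, ZC3H12A, TNC, FN1 and CHI3L1 lost their call too (adjusted p from 0.0501 to 0.0798). The number of member genes called was 5, and 3 with the replicate block (same-numbered arrays deviated together at r = 0.08 across genes, so the numbers were not taken to pair the cultures) and 0 to 2 with an array left out. The number of member probe sets called was 7, and 4 with the replicate block, 11 with quantile normalization, 16 with the intensity trend, 16 among probe sets at or above the median level and 0 to 4 with an array left out. In the pathway lists the counts were 7 higher and 1 lower. They were 2 and 0 with the replicate block, 15 and 4 with the intensity trend, 13 and 5 with the filter at the median level, and 0 and 0 with an array left out. Over all genes, 328 higher and 536 lower became 135 and 200 with the replicate block, 763 and 1293 with the trend, 799 and 1282 with the filter, and 0 to 37 and 0 to 29 with an array left out. Over all probe sets, 622 and 794 became 58 and 32 with the replicate block, 1718 and 2323 with the trend, 1761 and 2325 with the filter, and 0 to 38 and 0 to 7 with an array left out. The filter tests fewer features and refits the prior on them. A left-out array leaves a single array standing for its group, assumed to vary like the other group. The cause of the changes in these counts was not tested.

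Signs turned only on probe sets that did not pass. The dimmer IL6 probe set gave -0.00774 under quantile normalization and ran from -0.209 to 0.233 with an array left out (negative without NeuroD2 replicate 2 and, at -0.0663, without control replicate 2). With an array left out, the dimmest IL11RA probe set ran from -0.381 to 0.103 and an OSMR probe set from -0.230 to 0.0984, both positive without control replicate 1. Of LIFR, 1 probe set ran from -0.258 to 0.0889 (positive without control replicate 2) and another from -0.0317 to 0.186 (negative without control replicate 1). Signal over background was not measured, so the dim IL6R and IL11RA probe sets limit what can be said of these genes.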
